A study of Mus musculus with 8 samples.

Results

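The aminoacyl-tRNA synthetases are the enzymes that join each amino acid to its transfer RNA, the step that gives the ribosome its substrates. The genes described here were taken by name, 20 for cytosolic synthetases and 16 for mitochondrial ones, 36 in all out of the 49315 genes in the count files. All 36 were found, with Mars1 listed under its older symbol Mars, and all 36 passed the filter on low counts. The RNA was that of OT-I CD8 T cells, whose transgenic receptor recognises a peptide of ovalbumin. They were isolated as naive cells from spleens and inguinal lymph nodes by negative selection and cultured with interleukin-7 at 2.5 ng/ml and interleukin-15 at 50 ng/ml. Both groups were nucleofected for CRISPR-Cas9 editing, with a guide RNA against LacZ, a bacterial gene absent from mouse cells, in the control (labelled Control KO and WT) and against Carm1, which encodes an arginine methyltransferase, in the other, called edited from here on. There were 4 libraries in each group, made from RNA taken 7 days after editing.

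The labels call the 4 libraries of a group technical replicates, so each p-value reflects the spread among libraries alone, which may be technical, and the edit and any other difference in the handling of the cells cannot be told apart. The sources used here give neither the age nor the number of the mice. The series text adds co-culture of both groups with B16F10 melanoma cells expressing ovalbumin, which the sample protocols do not mention. Library totals ran from 37556330 to 41439998 counts. Carm1 was at 94.4, 95.9, 96.9 and 96.3 CPM (counts scaled to a common library size with TMM factors) in control libraries and at 32.8, 33.2, 33.0 and 32.1 CPM in edited ones, a fall of 2.92-fold. Of 14970 genes tested, 87.7% passed at an adjusted p under 0.05 (edgeR quasi-likelihood test). A fold of at least 2 was therefore counted as well, which 15.2% of tested genes passed in the lower direction and 20.5% in the higher. All 8 CD8 T cell markers were detected, with a summed level of 6156 to 6307 CPM in the control and 7172 to 7393 CPM in edited ones. They did not move one way, as 5 rose, Cd3g by 2.10-fold and Cd3d by 1.82-fold among them, and 3 fell, Thy1 by 1.59-fold, Cd2 by 1.37-fold and Lck by 1.08-fold, the last by less than the shift between scalings. All 8 myeloid markers fell, from a sum of 131.6 to 137 CPM in the control to 6.78 to 8.42 CPM in edited ones, where Clec7a had no counts in 3 libraries, Cd14 in 2 and Csf1r in 1. The sum of 3 erythroid markers went from 3.83 to 4.34 CPM in the control to 0.144 to 0.376 CPM (2 fell), that of 2 NK cell markers from 3.31 to 3.80 CPM to 1.00 to 1.56 CPM (2 fell) and that of 4 dendritic cell markers from 1.24 to 1.68 CPM to 0.476 to 0.909 CPM (2 fell). The 6 B cell markers went up, from a sum of 6.31 to 7.03 CPM to 18.8 to 20.2 CPM (2 rose), as did Cd4, from 0.127 to 0.218 CPM to 0.627 to 0.981 CPM. The 4 fibroblast markers summed to 1.60 to 2.05 CPM and 1.20 to 1.64 CPM, with Col1a2 falling and Col1a1 rising. Of 6 melanocyte markers Dct, Sox10, Tyr and Tyrp1 had no counts in any library, and the sum, 3.24 to 3.58 CPM in the control and 11.8 to 13.0 CPM in edited ones, came almost wholly from Pmel. The part of such cells in what follows was not tested.

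Each amino acid has its own synthetase, and mammalian cells keep separate nuclear genes for most of the enzymes that work in mitochondria. Gars and Kars serve both compartments from a single gene, Eprs encodes a fused enzyme for glutamate and proline, and the phenylalanine enzyme of the cytosol is built from the products of Farsa and Farsb. Cytosolic synthetases are heavily used in growing lymphocytes, and transcription of many of their genes is raised by ATF4, a factor of the amino acid response that binds with C/EBP proteins to a composite DNA element. The promoter tables of RefSeq (GRCm38.p6, 250 bases before the transcription start to 50 bases after it) held 27 of the 36 genes, 13 cytosolic and 14 mitochondrial. The core of the composite element, TGATGNAA, was searched on both strands. It was found in 5 of the 13 cytosolic genes and in 0 of the 14 mitochondrial genes, against 3.97% of all 32851 promoter windows of the same length. The E-box CACGTG, the site of MYC and related factors, was found in 4 of the 13 and in 1 of the 14, against 7.15% of all windows, and the STAT element TTCNNNGAA in 2 and 1, against 8.30%. Matches of different motifs did not overlap in any of these windows (0 pairs). A match does not show that a factor binds, and these shares were not tested.

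The stretches below are shown because they hold the composite element core in the 5 cytosolic genes, written 5′ to 3′ on the gene's strand with matches to TGATGNAA (either strand) and CACGTG in capitals. Aars, Iars and Tars carry both kinds of match in the window. Qars is shown for contrast, as the cytosolic gene whose level did not pass the test, and has no match in its window. The coordinates are chr8:111033676-111033878, plus strand for Aars, chr6:55037951-55037998, plus strand for Gars, chr13:49682041-49682164, plus strand for Iars, chr15:11399614-11399693, minus strand for Tars, chr4:129189886-129189933, plus strand for Yars and chr9:108507905-108508054, plus strand for Qars, all on GRCm38.p6.
Aars: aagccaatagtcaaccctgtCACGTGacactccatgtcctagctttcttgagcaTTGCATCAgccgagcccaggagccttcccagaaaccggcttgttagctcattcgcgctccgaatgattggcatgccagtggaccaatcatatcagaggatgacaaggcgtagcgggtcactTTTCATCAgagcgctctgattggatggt
Gars: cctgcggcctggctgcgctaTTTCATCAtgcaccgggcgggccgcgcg
Iars: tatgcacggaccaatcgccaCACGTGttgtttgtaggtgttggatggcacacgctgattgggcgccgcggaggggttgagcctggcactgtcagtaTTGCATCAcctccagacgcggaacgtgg
Tars: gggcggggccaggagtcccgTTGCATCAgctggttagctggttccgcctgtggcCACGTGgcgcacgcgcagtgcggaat
Yars: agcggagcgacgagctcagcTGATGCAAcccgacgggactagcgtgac
Qars: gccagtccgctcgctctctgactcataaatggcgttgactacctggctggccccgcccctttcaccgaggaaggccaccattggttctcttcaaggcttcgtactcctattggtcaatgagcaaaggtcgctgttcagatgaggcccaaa
The Cars, Hars, Lars, Nars, Rars, Vars, Wars, Hars2 and Pars2 genes were not matched. All 5 genes with the core in their window fell at least 2-fold, and so did other cytosolic genes without it, such as Eprs, Farsb, Kars and Mars1. Of all tested genes 15.2% fell at least 2-fold.

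Transcripts of cytosolic synthetases were lower in the Carm1-edited libraries. Of 20 genes, 19 fell, 0 rose and 1, Qars, did not pass, where 43.2% of all tested genes fell. By the 2-fold rule 16 of 20 were lower, against 15.2% of all tested genes and 17.7% of the 3882 tested genes within the range of mean CPM that the cytosolic members span, a comparison added after the values were seen. The median log2 fold change of the 20 was -1.39, a 2.63-fold lower level, and that of all tested genes was 0.020. Of the 3882 genes in that CPM range 61.1% fell, and their median log2 fold change was -0.26. The 2 groups did not overlap for 19 of the 20, with the edited libraries lower each time, where 41.2% of all tested genes were so placed. The test was edgeR's quasi-likelihood test with Benjamini-Hochberg adjustment over all genes. Upper-quartile factors moved the median of all tested genes by 0.215 on the log2 scale and library totals alone by 0.160. With either of them 19 genes still fell, 13 were at least 2-fold lower with Aars, Farsa and Gars no longer so, and Qars passed as higher. The summed myeloid markers moved the same way, from 131.6 to 137 CPM in control libraries down to 6.78 to 8.42 CPM, and so did the sums of the erythroid, NK cell and dendritic cell markers given above. The part of any of them in these levels was not tested. Of the 36 genes, 12 share exon bases with another gene, 2 of them over more than 10% of their length, and reads there cannot be assigned without strand. In bulk RNA, fewer cells with these transcripts and less RNA per cell cannot be told apart.

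**Figure D1:**
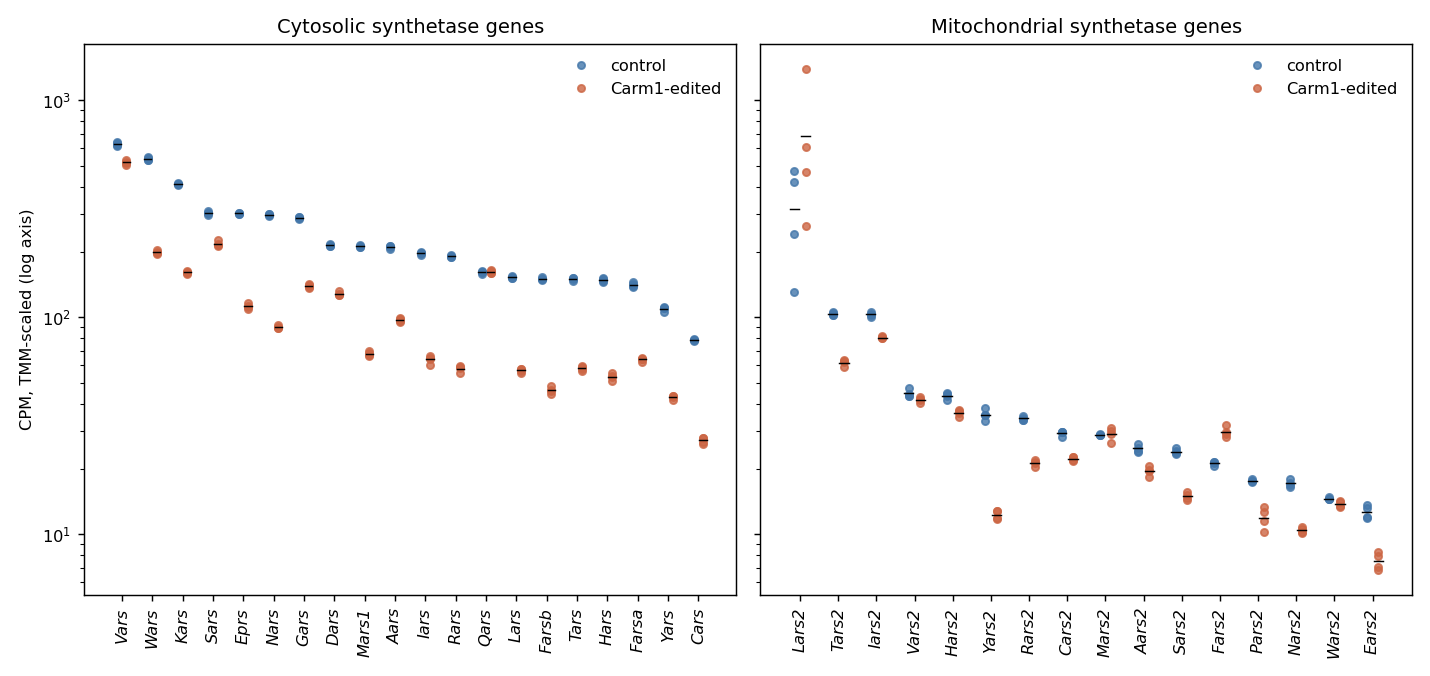
Level of each synthetase gene in each of the 8 libraries, as CPM scaled by TMM factors on a log axis, with cytosolic genes on the left and mitochondrial genes on the right. Points are libraries and short black lines are group means. The control libraries lie above the Carm1-edited libraries for 19 of the 20 cytosolic genes, and the 4 libraries of a group lie close together for the genes shown, apart from Lars2.

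The steepest falls were close to one another in size. Rars, the arginyl-tRNA synthetase gene (ENSMUSG00000018848, chromosome 11, 35808381 to 35834506, minus strand, mm10), was at 191, 189, 193 and 190.5 CPM in control replicates 1 to 4 and at 58.7, 59.5, 55.2 and 58.1 CPM in the Carm1-edited ones. The edited libraries all lay far below the control ones, and the log2 fold change was -1.72 ± 0.026 (SE, adjusted p = 3.7e-40). Nars, for asparagine (ENSMUSG00000024587), had 299, 296, 294 and 299 CPM in control libraries and 89.5, 89.2, 90.6 and 92.5 CPM in edited ones. Here too the groups were far apart, with a log2 fold change of -1.71 ± 0.023 (adjusted p = 7.9e-42), and Rars and Nars differ in fold change by less than their SE. Mars1, for methionine, which also charges the initiator tRNA (ENSMUSG00000040354, chromosome 10, 127296221 to 127311786, minus strand), was at 209.6, 215, 211 and 214 CPM and then at 66.2, 68.4, 69.9 and 67.0 CPM, 3.13-fold lower. Within each group these 4 libraries differed by only a few percent. Iars, for isoleucine (chromosome 13, 49682100 to 49734267, plus strand), stood at 193, 197, 199.7 and 198 CPM in control libraries and at 60.6, 66.3, 65.2 and 64.2 CPM in edited ones, 3.08-fold lower, with edited replicate 1 the lowest.

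Wars, the tryptophan gene, was the most abundant synthetase transcript per length in the control. This gene is known for its induction by interferon gamma. Wars (ENSMUSG00000021266, chromosome 12, 108860030 to 108894174, minus strand) was at 532, 539, 532 and 549 CPM in control libraries and at 197, 195, 204 and 199 CPM in edited ones. No library of either group came near the other group, and the log2 fold change was -1.43 ± 0.022 (adjusted p = 1.9e-39). On a length-scaled level (TPM, computed from the counts and the listed gene lengths) Wars was at 388 ± 9.41 in control libraries and at 149 ± 6.69 in edited ones (SD, n = 4 each).

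Another 6 cytosolic genes whose products act outside the multi-tRNA synthetase complex also fell at least 2-fold. Cars (cysteine) went from 78.3 ± 0.775 to 27.1 ± 0.917 CPM, 2.89-fold lower. Hars (histidine) went from 148 ± 3.11 to 53.2 ± 1.86 CPM, 2.79-fold lower, and overlaps Hars2 on the opposite strand over 9.81% of its exon length. Tars (threonine) was 2.57-fold lower and Yars (tyrosine) 2.56-fold lower. Aars (alanine) was at 210.4 ± 2.24 and 97.2 ± 1.77 CPM, 2.16-fold lower, and shares 15.1% of its exon length with other genes, Exosc6 among them, so that part of its count is uncertain. Gars, which serves cytosol and mitochondria, was at 283, 290.2, 286 and 289 CPM in control libraries and at 141, 137, 136 and 142 CPM in edited ones. It fell 2.06-fold, the value nearest to the 2-fold line among those past it.

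The gene pair for the phenylalanine enzyme did not move in step. Farsa, the alpha subunit (ENSMUSG00000003808, chromosome 8, 84856989 to 84869257, plus strand), was at 137, 142, 139 and 145 CPM in control libraries and at 64.4, 62.0, 65.1 and 64.5 CPM in edited ones. Farsb, the beta subunit (ENSMUSG00000026245, chromosome 1, 78417975 to 78488897, minus strand), was at 151, 149, 153 and 150.3 CPM in control libraries and at 44.5, 46.4, 45.5 and 48.0 CPM in edited ones. Both fell with no overlap between groups, Farsa 2.20-fold and Farsb 3.27-fold. The ratio of Farsa to Farsb TPM, which no scaling factor touches, was 0.527, 0.548, 0.526 and 0.557 in the control libraries and 0.836, 0.771, 0.826 and 0.776 in edited ones. Each edited library had a higher ratio than each control library (exact two-sided permutation test on log2 ratios, n = 4 each, p = 0.0286, the smallest that 4 against 4 allows, 1 ratio tested). This test was not among those planned, and its p-value only restates that the groups do not overlap. Farsb overlaps Sgpp2 on the opposite strand over 9.47% of its exon length.

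The enzymes of 8 cytosolic genes assemble with the scaffold proteins AIMP1, AIMP2 and AIMP3 into the multi-tRNA synthetase complex, and the transcripts of this complex were not lowered evenly. Of the 8 synthetase genes, 7 fell, 6 of them at least 2-fold, with a median log2 fold change of -1.42. The 12 cytosolic genes outside it all fell, 10 of them at least 2-fold, with a median of -1.36. Of all tested genes 43.2% fell, and 15.2% fell at least 2-fold. Kars, for lysine, had 407, 418, 411 and 412 CPM in control libraries and 163, 159.8, 162 and 158 CPM in edited ones, 2.56-fold lower and without overlap. Eprs and Lars (leucine) each fell 2.68-fold, while Dars (aspartate) fell only 1.67-fold, with 217, 214, 215 and 213 CPM and then 127, 128, 127 and 133 CPM. All 4 edited libraries of Dars still lay below the control ones. Qars, the glutamine gene of the same complex (ENSMUSG00000032604, chromosome 9, 108507706 to 108515941, plus strand), was at 159, 162, 164 and 161 CPM in control libraries and at 164, 159, 165 and 161 CPM in edited ones. Its groups overlapped, and the log2 fold change was 0.0055 ± 0.023 (adjusted p = 0.82), with either sign over the alternatives and a call as higher with upper-quartile factors (0.22), library totals alone (0.17) and a filter at 5 CPM (0.099).

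The scaffold genes moved in both directions. Aimp2 was at 71.0, 74.5, 73.8 and 70.5 CPM in control libraries and at 13.4, 12.7, 12.8 and 11.1 CPM in edited ones, a fall of 5.80-fold, larger than that of any of the 36 synthetase genes. Eef1e1, which encodes AIMP3, fell from 85.6 ± 0.912 to 24.0 ± 0.685 CPM, 3.56-fold. Aimp1 had 109, 111, 111 and 111 CPM in control libraries and 159, 150.4, 146 and 155 CPM in edited ones. It rose 1.38-fold (log2 fold change 0.47 ± 0.025, adjusted p = 2e-20), with every edited library above every control library.

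The 4 cytosolic genes short of a 2-fold difference were Dars, Qars, Sars and Vars. Sars, for serine, was at 295, 308, 302 and 303 CPM in control libraries and at 226, 216, 213 and 216 CPM in edited ones. It fell 1.39-fold with no overlap. Vars, for valine (ENSMUSG00000007029, chromosome 17, 35000987 to 35016322, plus strand), was at 614, 641, 619 and 635 CPM in control libraries and at 533, 512, 519.9 and 502 CPM in edited ones. It fell 1.21-fold (log2 fold change -0.28 ± 0.022, adjusted p = 8.7e-15), a small difference beyond the spread of 4 libraries. The Sars log2 fold change was -0.47 ± 0.023, and both falls exceeded the 0.215 shift that upper-quartile scaling gave the median of all genes. Grouped by fold of the catalytic domain, 7 of 9 class I genes and 8 of 10 class II genes were at least 2-fold lower, with Eprs, which holds a domain of each class, left out. Of 12 cytosolic genes commonly listed as ATF4 targets, 11 were at least 2-fold lower, and of the other 8, 5 were. The 12 were Aars, Cars, Eprs, Gars, Iars, Lars, Mars1, Nars, Sars, Tars, Wars and Yars. As background for these class and ATF4 counts, 15.2% of all tested genes were at least 2-fold lower. The listed genes had a median log2 fold change of -1.42 and the other cytosolic genes one of -1.25. The difference between these subsets was not tested.

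**Figure D2:**
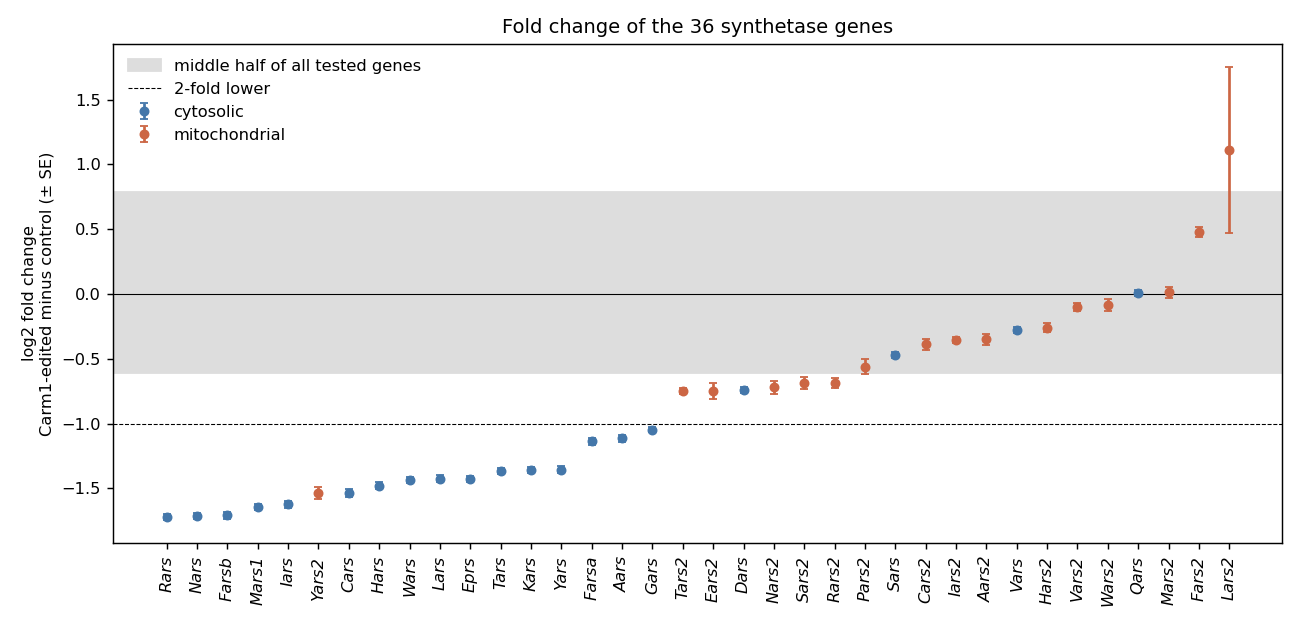
Log2 fold change, Carm1-edited minus control, of the 36 synthetase genes with their standard errors from the edgeR fit, ordered from the steepest fall. The grey band spans the lower to the upper quartile of all 14970 tested genes, -0.61 to 0.78, and the dashed line marks a 2-fold lower level. Blue points are cytosolic and orange points mitochondrial genes, and Yars2 is the mitochondrial gene among the blue points on the left.

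Mitochondrial synthetases supply the tRNAs that read the small mitochondrial genome, which encodes subunits of the respiratory chain. Of 16 genes, 12 fell (43.2% of all tested genes did), 1 rose (44.5% did) and 3 did not pass. Only 1 of them, Yars2, was at least 2-fold lower, 6.25% against 15.2% of all tested genes. Within the range of mean CPM that these 16 genes span, 10.1 to 499 CPM, 14.6% of 8440 tested genes were at least 2-fold lower. Of those 8440 genes 54.1% fell, and their median log2 fold change was -0.15. The upper end of that range was set by Lars2 alone, whose count was unsteady, as described below. The median log2 fold change of the 16 mitochondrial genes was -0.37, against -1.39 for the cytosolic genes, a difference that was not tested. The split depended on scaling, with 10 lower and 4 higher by upper-quartile factors and 11 lower and 2 higher by library totals alone.

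Yars2, the mitochondrial tyrosine gene (ENSMUSG00000022792, chromosome 16, 16302965 to 16309640, plus strand), was at 33.3, 35.5, 38.3 and 35.4 CPM in control libraries and at 12.8, 11.7, 11.9 and 12.8 CPM in edited ones. It fell 2.90-fold (log2 fold change -1.53 ± 0.046, adjusted p = 3.4e-29), within the range of the cytosolic genes, and the groups were far apart. Tars2, for threonine, had 103, 105, 103 and 104 CPM in control libraries and 63.4, 59.0, 62.9 and 62.1 CPM in edited ones, 1.68-fold lower and without overlap. A group of similar falls followed. Ears2 (glutamate) fell 1.68-fold, Nars2 (asparagine) 1.65-fold, Sars2 (serine) 1.61-fold, Rars2 (arginine) 1.61-fold and Pars2 (proline) 1.48-fold. Per length, these 5 ran from 6.11 ± 0.437 TPM for Ears2 to 30.7 ± 0.719 TPM for Rars2 in the control. Cars2 (cysteine), Iars2 (isoleucine), Aars2 (alanine) and Hars2 (histidine) fell by 1.31-fold, 1.28-fold, 1.27-fold and 1.20-fold. With upper-quartile factors Hars2 did not pass (adjusted p = 0.22, the highest over its alternatives). Iars2 shares 24.2% of its exon length with genes on the opposite strand, Rab3gap2 among them, so its count is uncertain.

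Fars2, the single-chain mitochondrial phenylalanine gene (ENSMUSG00000021420, chromosome 13, 36117411 to 36537592, plus strand), went the other way. It was at 21.6, 21.6, 21.2 and 20.6 CPM in control libraries and at 32.0, 28.9, 29.7 and 28.1 CPM in edited ones. All edited libraries lay above all control libraries, as for 42.2% of all tested genes, and it rose 1.39-fold (log2 fold change 0.48 ± 0.042, adjusted p = 1.3e-13), with a log2 fold change of 0.44 to 0.69 over the alternatives. Mars2, for methionine, was at 28.6, 29.0, 28.6 and 28.8 CPM in control libraries and at 28.9, 29.9, 30.9 and 26.2 CPM in edited ones. The groups overlapped and the log2 fold change was 0.013 ± 0.041 (adjusted p = 0.78), though Mars2 passed as higher with upper-quartile factors (0.23), library totals alone (0.17) and the 5 CPM filter (0.11). Vars2 and Wars2, for valine and tryptophan, had log2 fold changes of -0.098 ± 0.032 (adjusted p = 0.0052) and -0.084 ± 0.048 (adjusted p = 0.10). Both values turned positive with upper-quartile factors, at 0.12 and 0.13, and both genes then passed as higher. With library totals alone the values were positive as well, at 0.062 and 0.076, and neither gene passed.

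Lars2, the mitochondrial leucine gene (ENSMUSG00000035202, chromosome 9, 123366927 to 123462666, plus strand), stood apart by its spread between libraries of the same group. Its level was 242, 419, 471 and 131 CPM in control replicates 1 to 4 and 607, 262, 469 and 1392 CPM in Carm1-edited replicates 1 to 4. Control replicate 4 was the lowest and edited replicate 4 the highest, and the groups overlapped. The coefficient of variation (SD as a percent of the mean) came to 49.8% over control and 72.3% over edited libraries, where the other 35 genes had 0.371% to 7.04% and 1.02% to 11.5%. The log2 fold change of 1.11 ± 0.64 did not pass (adjusted p = 0.15) and was 0.49 without edited replicate 4. Gm42418, a gene annotated over a ribosomal RNA repeat on chromosome 17 and chosen after the Lars2 values were seen, was at 902, 1421, 1539 and 517 CPM in control libraries and at 1875, 791, 1525 and 4243 CPM in edited ones. Another gene annotated over such repeats, AY036118, was also looked up and is not reported here. The order of the 4 libraries by Gm42418 was that by Lars2 in each group. The ratio of Lars2 to Gm42418 CPM lay between 0.254 and 0.306 in control libraries and between 0.308 and 0.331 in edited ones. What part of the Lars2 count came from ribosomal RNA was not tested.

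**Figure D3:**
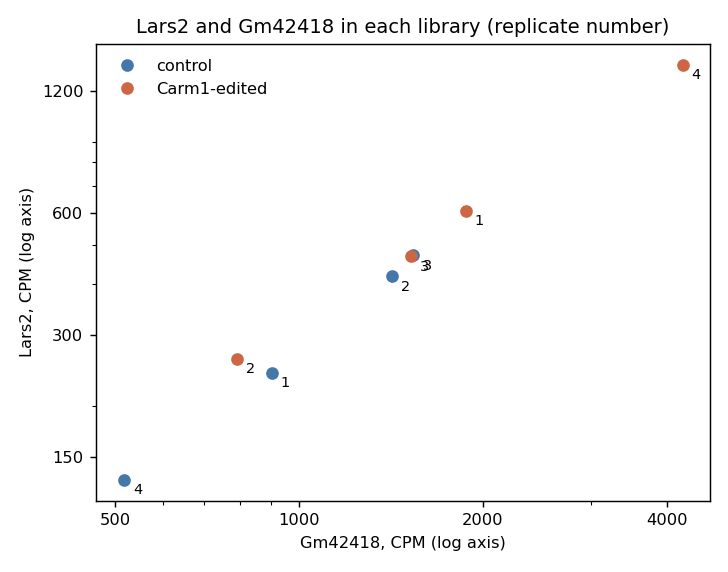
Level of Lars2 against that of Gm42418 in each of the 8 libraries, as CPM on log axes, with the replicate number beside each point. Within each group the libraries have the same order by both genes, from control replicate 4 at 131 and 517 CPM (Lars2 and Gm42418) up to Carm1-edited replicate 4 at 1392 and 4243 CPM. Between groups the order differs once, as edited replicate 2 is above control replicate 1 in Lars2 and under it in Gm42418.

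Set side by side within a library, most cytosolic genes were lower in the edited libraries relative to their mitochondrial partners. The ratio of cytosolic to mitochondrial TPM was formed for 16 pairs, with Eprs serving as partner of both Ears2 and Pars2 and Farsa as that of Fars2. It was lower in the Carm1-edited libraries for 14 pairs and higher for 2, with no overlap between groups in any pair. As background, 83.4% of all tested genes had no overlap in CPM. For Mars1 to Mars2 the ratio was 24.2, 24.4, 24.3 and 24.5 in control libraries and 7.55, 7.54, 7.46 and 8.42 in edited ones, 3.15-fold lower. For Farsa to Fars2 it was 2.97, 3.06, 3.07 and 3.29 and then 0.944, 1.00, 1.03 and 1.07. For Wars to Wars2, the widest pair in the control, it was 61.8, 64.2, 63.0 and 65.3 and then 25.2, 24.0, 26.5 and 24.1. Serine and tyrosine were the exceptions. The Sars to Sars2 ratio was 7.84, 8.37, 8.31 and 7.85 in control libraries and 9.91, 9.20, 8.79 and 9.71 in edited ones, and that of Yars to Yars2 was 1.63 ± 0.102 and 1.85 ± 0.0755 (SD, n = 4 each). The ratio of Lars to Lars2, which fell 5.28-fold, rests on the unsteady Lars2 count. These ratios were not tested.

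**Figure D4:**
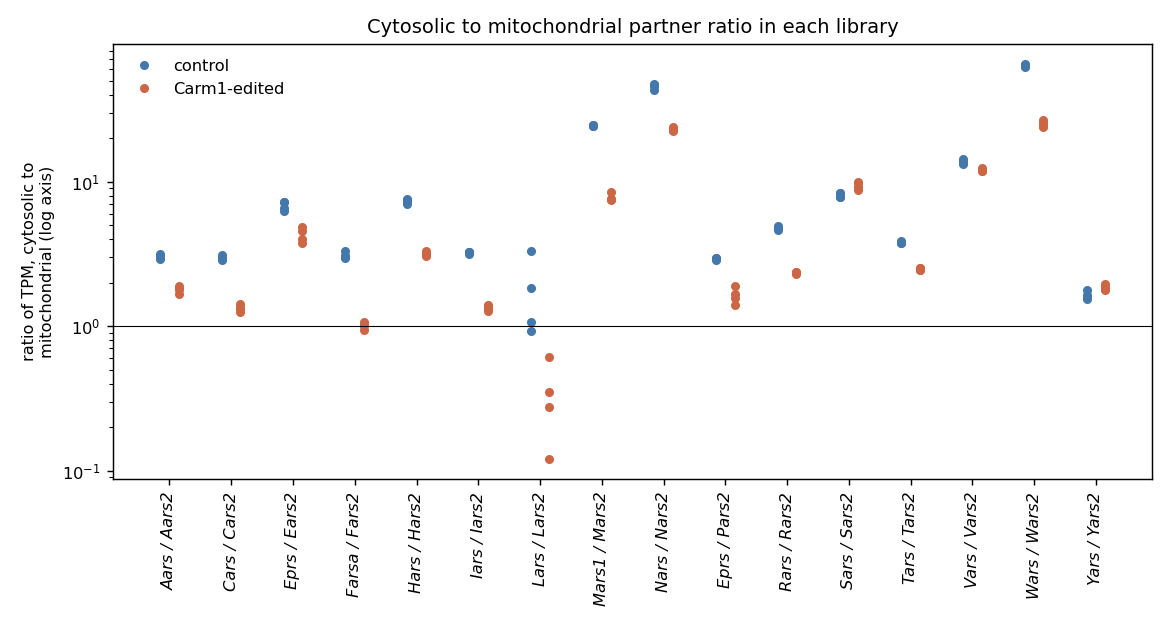
Ratio of cytosolic to mitochondrial TPM for each amino acid with genes for both, in each of the 8 libraries, on a log axis. Blue points are control and orange points Carm1-edited libraries, and the line marks a ratio of 1. The edited points lie below the control points for 14 of 16 pairs, with Sars to Sars2 and Yars to Yars2 the other way, and the points for Lars to Lars2 are the most scattered.

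Summed over genes, the 20 cytosolic transcripts were at 2971, 2915, 2906 and 2989.7 TPM in control libraries and at 1338, 1405, 1417 and 1342 TPM in the Carm1-edited libraries, 2.14-fold lower. The 16 mitochondrial ones came to 338, 372, 382 and 311 TPM and then 354, 283, 337 and 524 TPM, with overlap. Without Lars2, a sum added after the values were seen, the mitochondrial transcripts were at 283, 280.2, 278 and 281 TPM in control libraries and at 218, 221, 224 and 209.6 TPM in the Carm1-edited libraries, 1.29-fold lower. The cytosolic to mitochondrial ratio of the sums without Lars2 went from 10.5 ± 0.0972 to 6.31 ± 0.115 (SD, n = 4 each). With Lars2 it was 8.46 ± 0.926 and 3.88 ± 1.00.

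The order of the genes by TPM also changed. In the control, Wars led at 388 ± 9.41, followed by Nars at 280.1 ± 6.98 and Vars at 278 ± 5.53, which do not differ beyond their spread, and then by Kars at 229 ± 2.65 and Gars at 229 ± 3.50, which do not either. In the Carm1-edited libraries Vars led at 237 ± 9.76, ahead of Lars2 with its wide spread at 156 ± 109 and Wars at 149 ± 6.69. Gars at 115 ± 1.96 and Sars at 109 ± 2.61 came next, and Nars had fallen to 88.4 ± 2.91. At the low end of both groups were Wars2, Ears2, Nars2 and Mars2, from 6.10 ± 0.160 to 6.33 ± 0.0932 TPM in the control. Lengths are of all listed exons of a gene, so genes with many listed exons, such as Eprs at 18102 bp, are set low on this scale.

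**Figure D5:**
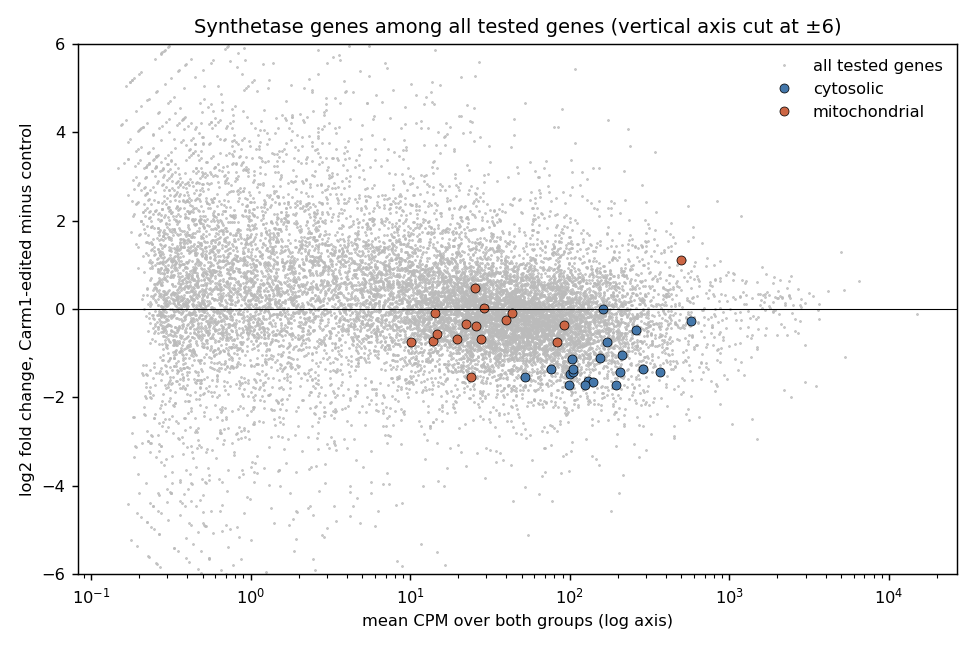
Log2 fold change, Carm1-edited minus control, against mean CPM over both groups on a log axis for all 14970 tested genes (grey), with the 20 cytosolic (blue) and 16 mitochondrial (orange) synthetase genes on top. The vertical axis is cut at 6 in either direction, which leaves out 158 genes and no synthetase. The cytosolic genes lie to the right of most mitochondrial ones on the CPM axis and mostly lower on the fold change axis.

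Genes of the neighbouring steps were counted for comparison, from lists chosen by function. Gatb and Qrsl1, subunits of the enzyme that turns glutamate into glutamine on mitochondrial tRNA, fell 2.23-fold and 1.51-fold, while the third subunit, Gatc, was at 18.2 ± 0.850 and 18.3 ± 0.844 CPM and did not pass. Mtfmt, which formylates the mitochondrial initiator tRNA, fell 1.11-fold, less than the shift between scalings. Of 4 genes for proteins that clear wrongly charged tRNA or resemble such enzymes, Dtd2 and Prorsd1 rose 1.28-fold and 1.32-fold, Aarsd1 fell 1.54-fold and Dtd1 did not pass at 36.5 ± 1.12 and 36.3 ± 2.00 CPM.

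Selenocysteine is made on its tRNA after that tRNA has been charged with serine, and 5 of 6 genes of this route fell and 1 rose, where 43.2% of all tested genes fell and 44.5% rose. Only 1 of the 6 was at least 2-fold lower, 16.7% against 15.2% of all tested genes. Pstk, the kinase that acts on that charged tRNA, rose 1.80-fold, while Sepsecs, which completes the conversion, fell 1.34-fold. Sephs1 and Sephs2, of the selenophosphate synthetase family, fell 1.55-fold and 1.17-fold. Eefsec, the elongation factor for selenocysteine, fell 2.60-fold and Secisbp2, which binds the selenocysteine signal in messenger RNA, fell 1.73-fold. Of 24 tRNA maturation and export genes 21 fell (43.2% of all tested genes did) and 3 rose (44.5% did), with a median log2 fold change of -0.89. At least 2-fold lower were 7, or 29.2%, against 15.2% of all tested genes. Ssb, which encodes the La protein that protects new tRNA transcripts, fell from 304 ± 2.30 to 158 ± 4.19 CPM, and Ddx1, part of the tRNA ligase complex, from 153 ± 1.27 to 74.7 ± 2.74 CPM. Of 41 tRNA modification genes in the files 35 fell, while 4 did not pass and 2 rose, against the same shares of all tested genes. Their median was -0.67, and 10 of them, or 24.4%, were at least 2-fold lower, against 15.2%. The methyltransferase gene Nsun2 fell 3.84-fold and Trmt61a, a methyltransferase subunit, 9.15-fold. The median of the cytosolic synthetases, -1.39, was lower than the medians of both lists, a difference that was not tested.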

How the data were processed

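Whole-number counts per Ensembl gene, deposited for each library, were made by the authors with RSEM, per the labels' protocols, on the mm10 build, per the submitters' processing notes. RSEM estimates are usually fractional, while all deposited values are whole. The aligner, annotation and strand setting were not given in the sources used here. Counts were used as deposited. Symbols came from GENCODE M21 (GRCm38) for 48970 of 49315 identifiers. Genes were kept by filterByExpr (14970 genes), scaled with TMM factors (0.938 to 1.07) and compared by a two-sided quasi-likelihood test (robust dispersions) with Benjamini-Hochberg adjustment at 0.05 (edgeR 4.0.16, limma 3.58.1 and DESeq2 1.42.0 in R 4.3.3, scipy 1.17.1). The edgeR step was tested on simulated data. SE is the log2 fold change divided by the square root of F. The smallest detectable level, 3 counts, is 0.0724 to 0.0799 CPM per library. A chi-square per degree of freedom over genes with at least 20 counts was 1.45 to 13.5 within groups, so no library was a copy of another. The TruSeq v2 mRNA kit keeps no strand, and reads were paired, of 150 bp. Named genes were all 36 members, Carm1, the members of short neighbouring lists, with 1 not reported here, and 2 per longer list. Members and lists were chosen with earlier results of these data known. Alternatives were other scalings, filters and tests, the replicate number as a block, and each library left out.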

Additional observations from a re-analysis of the deposited data

Results flagged for a closer look

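Among the 72 sets of 4 libraries examined (36 genes in each of 2 groups), 3 had 1 library far from the other 3, where chance gives about 1 in 20 sets. Dars was at 132.6 CPM in Carm1-edited replicate 4 and at 126.6 to 127.5 CPM in the other edited libraries. Yars was at 106.2 CPM in control replicate 4 and at 110.4 to 111 CPM in the other control libraries. Cars2 was at 28.0 CPM in control replicate 1 and at 29.5 to 29.7 CPM in the other control libraries. Each of these gaps is small beside the difference between the groups. Lars2, whose libraries differ most, had no single library apart by this measure.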

How the results depend on the processing

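Over 16 alternatives, 32 of 37 single genes (the 36 synthetase genes and Carm1) kept their direction and their side of the threshold, and the counts of cytosolic and mitochondrial genes called stayed within 1.5 times. Leaving out each library gave 19 cytosolic and 13 mitochondrial genes called every time, 16 and 1 of them at least 2-fold lower, and 13155 to 13233 of all genes. Without the filter 15400 genes were called, and with at least 5 CPM in at least 4 libraries 9397. The share of calls that were higher was 50.8% with TMM, 61.0% with upper-quartile factors and 58.4% with library totals alone. Qars changed sign with RLE factors (-0.0097), no filter (-0.020) and DESeq2 (-0.0096), and ranged from -0.015 to 0.017 with a library left out. Mars2 changed sign with RLE factors (-0.0025), no filter (-0.013) and DESeq2 (-0.0026), and ranged from -0.023 to 0.051 with a library left out. Vars2 changed sign with upper-quartile factors (0.12), where it passed as higher, and with library totals alone (0.062), where it did not pass. It lost its call with at least 5 CPM (adjusted p = 0.88). Wars2 changed sign with upper-quartile factors (0.13), library totals alone (0.076) and at least 5 CPM (0.0089), and of these passed as higher with upper-quartile factors only. The cause was not tested beyond the shift of scaling itself. With the replicate number as a block, 13031 genes were called, with the same counts of synthetase genes. Libraries with the same number did not deviate together (r = -0.43 to -0.16 over 8961 genes, and 0 of 8 libraries was closest to its own number). This check gave no sign of pairing by number. Any other relation between libraries of the same number was not tested. Depth limits no synthetase gene here, as the lowest, Ears2, was at 7.55 ± 0.695 CPM in the Carm1-edited libraries.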
